A study of Mus musculus with 9 samples.

Results

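The 29 genes described here encode proteins of the synaptic vesicle cycle: 11 proteins on or bound to the vesicle, 9 proteins of fusion, 5 of the active zone and 4 of endocytosis. They were listed by name, and their transcripts were found by matching RefSeq identifiers to gene symbols. They hold 50 of the 33299 transcripts in the table and are 29 of its 23798 genes. RNA was sequenced from mouse brain samples labelled as oligodendrocytes, in a series concerned with how alpha-synuclein made by neurons acts on oligodendrocytes, the myelin-forming glia. Each group had 3 samples: placebo-treated mice of wild-type genotype (WT), placebo-treated mice of the genotype TG, and NM-101-treated mice of that same genotype. The labels used here name neither the transgene and its promoter nor the nature of NM-101, the age or the sex of the mice. An FFPE kit, made for fixed and embedded tissue, was used for the RNA, and QuantSeq libraries read transcripts from their 3′ ends, per the labels' protocols.

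At a nerve terminal, neurotransmitter is packed in vesicles that dock at the active zone, a protein scaffold beneath the membrane. Calcium bound by synaptotagmin triggers fusion, which is driven by the SNARE proteins of vesicle and target membrane; NSF and its SNAP adaptors then take the SNARE complex apart. Dynamin, amphiphysin, endophilin and synaptojanin retrieve the membrane. In brain many, but not all, of these genes are known as markers of neurons, and alpha-synuclein itself is a protein of the presynaptic terminal.

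All members were detected in each of the libraries labelled as oligodendrocytes, as was the neuronal nuclear gene Rbfox3. Its log2 values ran from 7.31 to 7.45 in WT and from 6.63 to 6.79 in TG, which were normalized separately. The myelin gene Mbp stood between 9.93 and 11.62 over the 9 libraries. Because RNA came from whole samples, fewer neurons and less RNA per neuron cannot be told apart. WT libraries held between 10612290 and 14041951 counts. Steps in the low TG values imply between 9140000 and 12900000 reads per TG library, an estimate in which between 82.7% and 87.0% of values lay within 0.2 of a whole read. TG placebo replicate 1 differed from replicates 2 and 3 of its group. Levels of the nuclear RNA Malat1 in the 3 replicates were 6.11, 9.00 and 9.48, and those of Ttr, which the choroid plexus expresses, were 12.14, 2.65 and 3.60. Malat1 ran from 5.27 to 6.21 in WT and from 7.09 to 7.65 under NM-101, so placebo replicates 2 and 3 were the highest of the 9 libraries. Ttr was also high in WT replicate 1 (11.56) and NM-101 replicate 2 (10.00). Results that rest on TG placebo replicate 1 are given with and without it.

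The WT columns hold counts and the TG columns hold log2 values, read here as log2(FPKM + 1), where FPKM is fragments scaled to transcript length and library size. WT counts, scaled to library size and transcript length, are given as log2(RPKM + 1), the same quantity for single reads. A level below is always on this log2 scale per length. A test was made only between the 6 TG libraries. Differences from WT are descriptions, because the WT and TG columns were normalized separately.

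The stretches printed here were chosen because they bear on how these genes are read: a pair of promoter stretches holding a motif of neuronal genes, and the alternative exons that separate transcripts of Snap25 and Dnm1. RE1 is the element bound by REST, a repressor that keeps neuronal genes silent outside neurons. RefSeq promoter windows of GRCm38.p6 were matched for 25 members, and RE1 was searched by name on both strands with up to 1 mismatch in its 16 letters. It was present in 4 of 34 member windows (Syn1, Rph3a, Vamp1 and Erc2) and in 1.01% of all 32851 windows. The cyclic AMP response element TGACGTCA was present in 3 member windows (Syn1, Napa and Sh3gl2) and in 1.79% of all windows. The first stretch lies upstream of Syn1 at chrX:20921005-20921168 on the minus strand; its capitals mark the RE1 match, 215 bases before the annotated start, and the cyclic AMP response element. The other lies at chr5:121009539-121009788 on the minus strand, before 1 of the 3 starts that RefSeq windows give for Rph3a and inside the span of the gene (chr5:120940499-121010116); its capitals mark the RE1 match, which is on the strand opposite to the gene, 76 bases before that start. The matches are descriptions of these letters and show no binding.
Syn1 promoter: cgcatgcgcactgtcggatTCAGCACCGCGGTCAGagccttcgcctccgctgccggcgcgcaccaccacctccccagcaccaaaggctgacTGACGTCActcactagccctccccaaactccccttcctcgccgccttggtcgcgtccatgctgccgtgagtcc
Rph3a promoter: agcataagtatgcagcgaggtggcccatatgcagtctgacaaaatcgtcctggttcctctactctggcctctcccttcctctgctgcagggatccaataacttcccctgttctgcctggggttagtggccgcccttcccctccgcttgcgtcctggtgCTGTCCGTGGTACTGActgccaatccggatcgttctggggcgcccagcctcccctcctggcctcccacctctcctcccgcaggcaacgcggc

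Snap25 and Dnm1 each have a pair of alternative coding exons of equal length, of which an mRNA holds one. In the GENCODE M21 annotation of GRCm38, exon 5 of Snap25 is 118 bases long in both transcripts and differs at 31 positions (73.7% identical). It lies at chr2:136770057-136770174 in NM_011428 and at chr2:136769743-136769860 in NM_001291056, both on the plus strand. Exon 10 of Dnm1 is 139 bases long and differs at 39 positions (71.9% identical). It lies at chr2:32333066-32333204 in NM_001301737 and at chr2:32334682-32334820 in NM_010065, both on the minus strand. Capitals mark the bases that differ between the alternatives.
Snap25 exon of NM_011428: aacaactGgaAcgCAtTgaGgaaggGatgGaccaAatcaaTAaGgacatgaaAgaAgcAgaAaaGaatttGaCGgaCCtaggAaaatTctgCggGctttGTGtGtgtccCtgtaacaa
Snap25 exon of NM_001291056: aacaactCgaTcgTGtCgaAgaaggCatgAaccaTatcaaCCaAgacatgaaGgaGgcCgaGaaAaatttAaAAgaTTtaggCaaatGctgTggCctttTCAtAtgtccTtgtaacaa
Dnm1 exon of NM_001301737: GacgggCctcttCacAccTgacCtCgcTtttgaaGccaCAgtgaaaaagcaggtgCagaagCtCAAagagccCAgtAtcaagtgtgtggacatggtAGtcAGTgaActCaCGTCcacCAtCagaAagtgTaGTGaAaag
Dnm1 exon of NM_010065: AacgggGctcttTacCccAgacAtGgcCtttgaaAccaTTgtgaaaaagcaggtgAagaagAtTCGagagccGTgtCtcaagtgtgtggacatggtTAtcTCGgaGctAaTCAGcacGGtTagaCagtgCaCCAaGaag

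In the WT libraries, the 29 genes took 1.80%, 1.77% and 1.90% of all counts. In the TG libraries, where the share is of summed values per length and does not compare with that of counts, they took 1.27%, 1.30% and 1.18% under placebo and 1.06%, 1.11% and 0.85% under NM-101, lower in every NM-101 library than in any placebo library. Their own sum, on the log2 scale, was 12.56, 12.47 and 12.43 under placebo and 12.36, 12.55 and 12.46 under NM-101, and these groups overlapped. Snap25, a SNARE of the plasma membrane, was the highest by count and per length, with 28964, 40661 and 34900 counts and levels of 10.46, 10.62 and 10.58. The vesicle SNARE Vamp2 followed at 9.08 ± 0.09 (SD, n = 3), the vesicle membrane protein Syp at 8.87 ± 0.17 and the complexin Cplx2 at 8.80 ± 0.21. The lowest was Rims1, a scaffold that links vesicles to calcium channels, with 545, 895 and 534 counts and a mean level of 3.25. By WT level, Snap25 lay at the 99.9th percentile and Rims1 at the 45.8th of the 12488 genes that passed a filter on low values. Pclo was the next lowest member, at percentile 63.2. On the scale per length, Rims1 was thus the only member near the middle, and the others lay higher among these genes.

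By role, the median WT level was 7.92 for fusion, 6.65 for endocytosis, 6.60 for the vesicle and 4.29 for the active zone. Per length, the 5 active zone genes were the last 5 in the order, with Rims1 at the end: Erc2 at 5.28, Bsn at 4.53, Unc13a at 4.29 and Pclo at 4.06 preceded it. Counts of Bsn (3661, 5040 and 4176) were within the range of other members, and its transcript of 15938 bases is long, so its place depends on the scale. By CPM, counts scaled to library size alone, it ranked 17 of 29 in place of 26. Pclo ranked 20, Erc2 23, Unc13a 25 and Rims1 29 by CPM, so the 5 genes were not the last 5 on that scale. Because reads come from the 3′ ends, levels per length may understate long transcripts, and the medians by role share this limit. The 2 orders had a Spearman correlation of 0.89 over the 29 genes, which share the same counts.

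Of 28 pairs of neighbours in the order per length, 16 overlapped over the 3 libraries and 12 did not. Snap25 was 1.47 above Vamp2 with no overlap, and Pclo was 0.81 above Rims1 with none. From Syngr1 at 6.60 down to Stx1a at 5.70, a run that holds Sv2b, Napa, Rph3a, Amph, Sv2a, Syngr3, Synj1, Dnajc5 and Vamp1, every neighbouring pair overlapped. The coefficient of variation of CPM between WT libraries had a median of 7.6% over members and 7.4% over the 4179 genes at or above the lowest member's mean CPM. It was smallest for the vesicle protein Syngr3 (1.3%) and largest for the SNARE Stx1a (20.7%), whose counts were 968, 1921 and 1259.

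**Figure D1:**
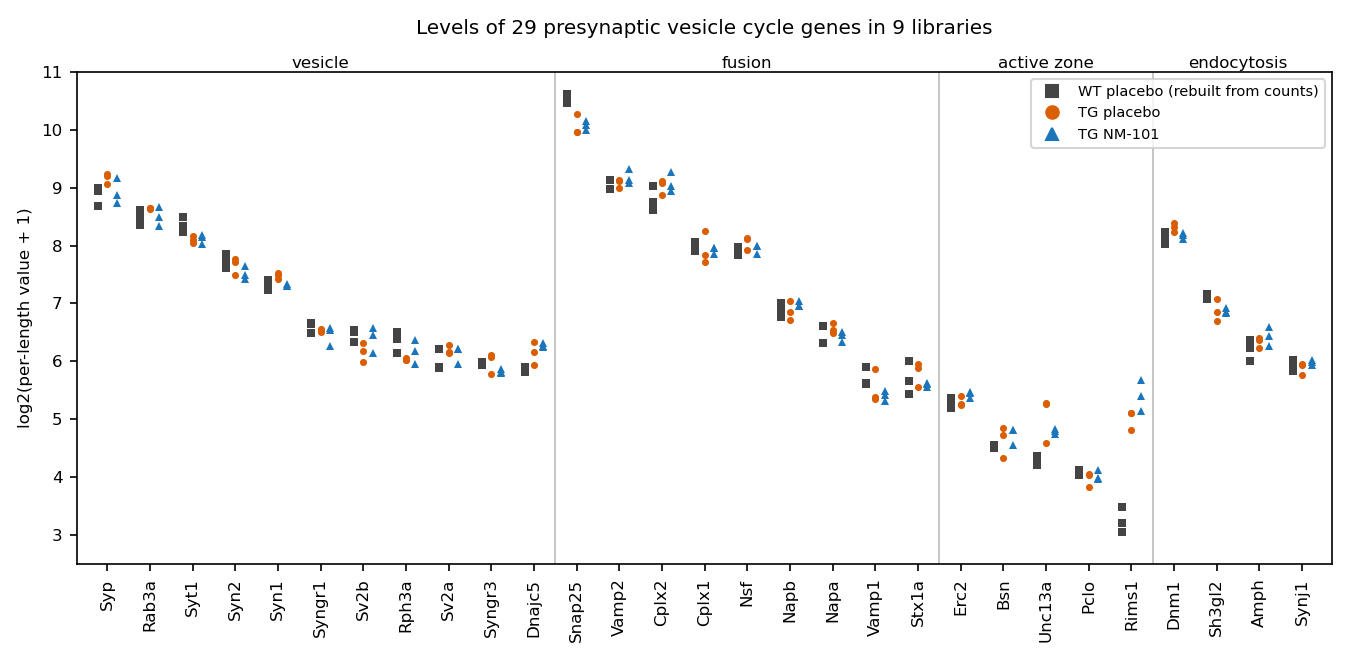
Levels of the 29 genes on a log2 per-length scale in each of 9 libraries, by role and by falling WT mean. Squares are WT libraries, rebuilt from counts and normalized apart from the others, circles TG placebo and triangles TG NM-101; Snap25 is highest in all libraries, and Rims1 is the gene whose WT squares (3.05 to 3.49) lie farthest below its TG points (4.82 to 5.67).

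Setting NM-101 against placebo within the TG genotype asks what the treatment changed. None of the 29 genes changed at a limma adjusted p of 0.05: 0 of 29 were called, beside 17 of 12699 genes (0.134%). At an unadjusted p under 0.05 there was 1 member, Rims1, beside 14.8% of all genes tested. All 29 passed the filter on low values. The fitted differences ran from -0.25 for Syp to 0.40 for Rims1, with 14 above and 15 below 0; after quantile normalization of the libraries 6 were above and 23 below 0, and Snap25 was at -0.37. Their median was -0.006, beside 0.029 over all genes tested, of which 55.5% were above 0, and -0.172 beside 0.010 after quantile normalization. Over the 864 genes at or above the members' median level, the median was 0.188, and 0.029 after quantile normalization. For 25 of 29 members the 95% interval lay within 0.5 of 0 on the log2 scale, which is 1.41-fold; for the others a larger difference is within the interval. Whether samples are separate animals is not said in the labels, so the p-values reflect sample-to-sample spread that may be technical. Without TG placebo replicate 1 the same fit called 2 members, Stx1a and Unc13a, beside 2269 genes (17.9%). That fit keeps only the placebo libraries that were highest in Malat1.

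**Figure D2:**
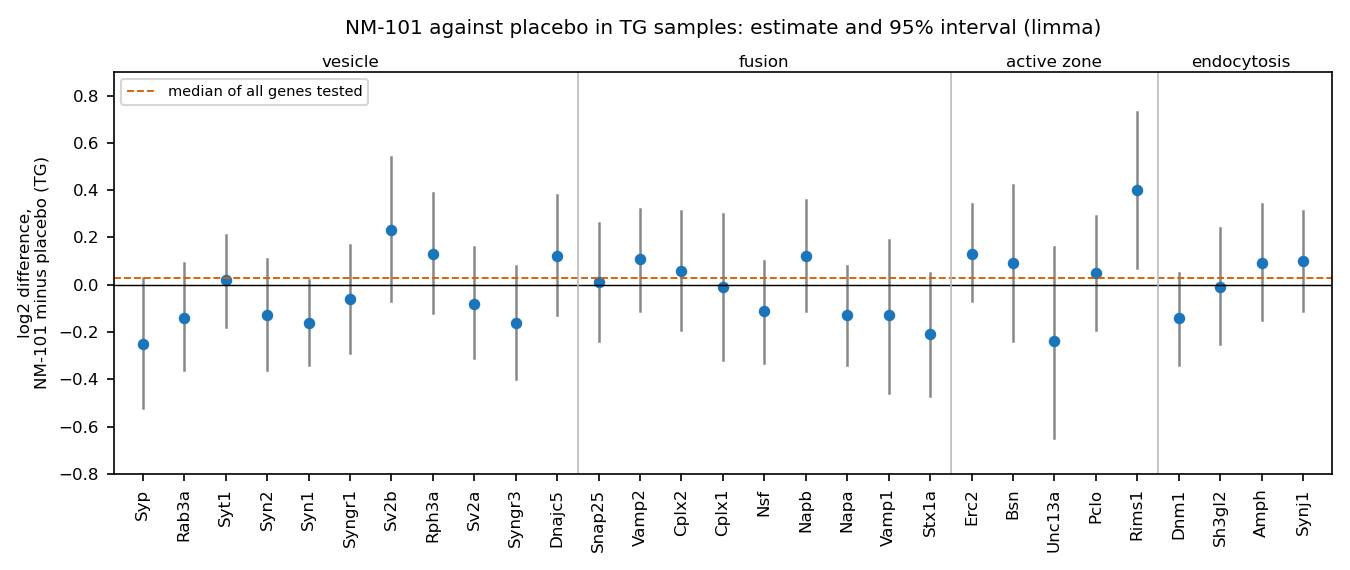
Difference between TG NM-101 and TG placebo on the log2 scale for each gene (points) with its 95% interval from limma (lines), 3 libraries per group; the dashed line is the median of all genes tested, 0.029. The interval of Rims1 (0.07 to 0.73) is the one that does not reach 0.

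Among the 11 vesicle genes, 4 differences were above 0 and 7 below, with a median of -0.076, and limma called none. Syp, a membrane protein of nearly all synaptic vesicles, stood at 9.07, 9.23 and 9.21 under placebo and at 8.74, 9.17 and 8.87 under NM-101. The groups overlapped, and the difference was -0.25 (SE 0.12, limma adjusted p = 0.376). It was -0.16 without NM-101 replicate 1 and -0.46 with quantile normalization (limma adjusted p = 0.159). Syn1, a synapsin that tethers vesicles to each other and to actin, stood at 7.50, 7.52 and 7.42 under placebo and at 7.34, 7.31 and 7.31 under NM-101. Every NM-101 library was below every placebo library by a small margin, and the difference was -0.16 (SE 0.08, limma adjusted p = 0.386). Groups that do not overlap with NM-101 lower were found for 2 of 29 members, Syn1 and Dnm1, and for 5.98% of all genes tested.

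The related synapsin Syn2 had a difference of -0.13 and overlapping groups (7.76, 7.71 and 7.49 against 7.43, 7.64 and 7.50). Rab3a, the GTPase of synaptic vesicles, was nearly level over placebo libraries (8.63, 8.65 and 8.65) and spread from 8.34 to 8.67 under NM-101. Its reads may include those of Mpv17l2, which overlaps the end of the gene; Araf overlaps the end of Syn1 and Gm14703 that of Syp, and the labels do not say whether counting used the strand. The calcium sensor Syt1 stood at 8.16, 8.09 and 8.05 under placebo and 8.02, 8.15 and 8.18 under NM-101, with a 95% interval of -0.18 to 0.21 for the difference.

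The vesicle glycoproteins Sv2a and Sv2b had differences of opposite sign, -0.08 and 0.23, neither of which passed. Sv2b stood at 6.32, 6.17 and 5.98 under placebo and 6.15, 6.57 and 6.46 under NM-101, and leaving out 1 library its difference ran from 0.14 to 0.36. The rabphilin gene Rph3a, an effector of Rab3, was close between placebo libraries (6.02, 6.05 and 6.03) and spread from 5.96 to 6.37 under NM-101. Dnajc5, the cysteine string protein that acts as a chaperone for Snap25, stood at 6.34, 6.16 and 5.94 under placebo and 6.24, 6.26 and 6.31 under NM-101. The synaptogyrins Syngr1 and Syngr3 differed by -0.06 and -0.16.

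Among the 9 fusion genes, 4 differences were above 0 and 5 below, with a median of -0.006. Without placebo replicate 1, Vamp1 (0.03) and Cplx1 (0.15) were also above 0, and the other fusion genes kept their sign. Snap25 stood at 10.27, 9.96 and 9.96 under placebo and 9.99, 10.15 and 10.09 under NM-101. The group means of 10.06 ± 0.18 and 10.08 ± 0.08 (SD, n = 3) differed by 0.01, and the 95% interval ran from -0.24 to 0.26. Vamp2 had a difference of 0.11 with overlapping groups (9.11, 9.13 and 9.00 against 9.09, 9.33 and 9.14).

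Stx1a, the syntaxin of the plasma membrane, stood at 5.56, 5.88 and 5.96 under placebo and 5.61, 5.62 and 5.55 under NM-101. Placebo replicate 1 was within the NM-101 range and replicates 2 and 3 were above it. The difference was -0.21 with a limma adjusted p of 0.420 over all 6 libraries, and -0.33 with an adjusted p of 0.0276 without placebo replicate 1. Among the other fusion genes, Snap25, Vamp1, Cplx1 and Napa (6.66) were highest of the 6 TG libraries in placebo replicate 1. Vamp1 stood at 5.87, 5.35 and 5.39 under placebo and 5.32 to 5.48 under NM-101, and Cplx1 at 8.25, 7.83 and 7.71 and at 7.86 to 7.96. The complexin Cplx2 differed by 0.06, the ATPase Nsf by -0.11, and its adaptors Napa and Napb by -0.13 and 0.12, all with overlapping groups.

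Of the 5 active zone genes, 4 differences were above 0 and 1 below, with a median of 0.092. Without placebo replicate 1, Bsn (-0.06) and Pclo (-0.02) were also below 0, and the other active zone genes kept their sign. Rims1 stood at 5.10, 5.10 and 4.82 under placebo and 5.40, 5.14 and 5.67 under NM-101. Every NM-101 library was above every placebo library. The difference was 0.40 (SE 0.15), a 1.32-fold value, with a limma adjusted p of 0.266. Of all genes tested, 13.6% had groups that do not overlap with NM-101 higher, and Rims1 was the only such member of 29.

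Unc13a, the Munc13 protein that primes vesicles for release, stood at 4.59, 5.26 and 5.28 under placebo and 4.80, 4.75 and 4.83 under NM-101. Placebo replicate 1 lay below all NM-101 libraries and replicates 2 and 3 lay above them. The difference was -0.24 (limma adjusted p = 0.531) with all libraries and -0.47 (limma adjusted p = 0.00744) without placebo replicate 1. Colgalt1 overlaps the end of Unc13a. Bsn, a giant scaffold of the active zone, stood at 4.33, 4.72 and 4.85 under placebo and 4.81, 4.55 and 4.82 under NM-101, and the related Pclo at 3.83, 4.04 and 4.05 and at 3.97, 3.99 and 4.12. Both were lowest in placebo replicate 1. The scaffold protein Erc2 differed by 0.13, with placebo libraries at 5.26, 5.40 and 5.24 and NM-101 libraries at 5.37, 5.47 and 5.46.

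The 4 endocytosis genes had 2 differences above and 2 below 0, with a median of 0.043. Without placebo replicate 1, Sh3gl2 was above 0 (0.09), and the other endocytosis genes kept their sign. Dnm1, the dynamin that pinches vesicles off the membrane, stood at 8.39, 8.32 and 8.24 under placebo and 8.11, 8.22 and 8.19 under NM-101. The ranges did not overlap, by a narrow margin, and the difference was -0.14 (SE 0.09, limma adjusted p = 0.451). The endophilin gene Sh3gl2 differed by -0.01, with placebo libraries spread from 6.69 to 7.07 and NM-101 libraries from 6.83 to 6.92. Amph, the amphiphysin that recruits dynamin, differed by 0.09, and the lipid phosphatase Synj1, which acts in the shedding of the clathrin coat, by 0.10, both with overlapping groups.

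Within genes, transcripts could be compared for the 15 members that have more than 1. Each transcript was fitted by itself, a choice made after seeing the data. Limma called 0 of 49 member transcripts, beside 7 of 15771 transcripts tested (0.0444%), and 3 of 49 member transcripts had an unadjusted p under 0.05, beside 12.1% of all transcripts tested, a larger share than among the members. The Dnm1 transcript NM_010065, with the exon printed last above, stood at 6.63, 6.80 and 6.75 under placebo and 6.16, 6.37 and 6.32 under NM-101. Its difference was -0.45 (SE 0.09, limma adjusted p = 0.180), while NM_001301737 differed by 0.00. As a share of the gene's linear value it held 29.3%, 34.6% and 35.4% under placebo and 25.5%, 27.4% and 27.0% under NM-101. In WT its share, likewise per length, was 27.6%, 25.7% and 29.3%, which overlapped the NM-101 range and reached the lowest placebo value.

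Syn1 had a like pattern between its transcripts. NM_013680 stood at 6.23, 6.36 and 6.09 under placebo and 5.72, 5.74 and 5.85 under NM-101, a difference of -0.46 (SE 0.10, limma adjusted p = 0.182). The other transcript, NM_001110780, differed by 0.03. NM_013680 held 41.3%, 44.6% and 39.4% of the gene's value under placebo, 32.0%, 33.2% and 36.0% under NM-101, and 33.7%, 36.5% and 33.8% in WT, below the placebo range and overlapping the NM-101 one. As the values were assigned to transcripts, the small differences of Syn1 and Dnm1 as genes went with 1 of their coding transcripts, and limma called neither. NM_010065 and NM_013680 had the smallest limma p-values of the member transcripts. How many of all transcripts have shares that separate the groups was not counted. The noncoding transcript of Dnm1, NR_125959, at most 2.0% of the gene in a TG library, differed by -0.49. For both genes the annotated 3′ ends of all transcripts lie within 50 bases, so reads near the end cannot tell the transcripts apart, and the labels do not say how reads were assigned to them. This holds for 7 of 14 members whose transcripts are placed separately: Amph, Dnm1, Rims1, Sv2b, Syn1, Synj1 and Syt1. The third transcript with an unadjusted p under 0.05, NM_001302344 of Rph3a, is a minor one, with a difference of 0.60 (limma adjusted p = 0.290).

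The Snap25 transcript NM_001291056 held 4.9%, 11.0% and 11.9% of the gene's value under placebo and 8.2%, 10.0% and 10.6% under NM-101, and these groups overlapped. In WT it held 8.6%, 13.9% and 8.1% of the counts, which is 16.4%, 25.2% and 15.6% per length, above all TG libraries. The WT share per length rests on its annotated length of 1014 bases, and the length behind the TG values is not stated. NM_011428 held the remainder. Its annotated 3′ end lies 1077 bases beyond that of NM_001291056, in the same last exon. The Vamp1 transcript NM_001080557, whose last exon spans an intron that the other transcript splices out, held 2.4%, 15.3% and 17.9% under placebo, 6.0%, 3.5% and 3.1% under NM-101, and 0.5%, 1.4% and 1.4% in WT. Its high values were in placebo replicates 2 and 3, which were also high in the nuclear RNAs Malat1 and Meg3 (8.64 and 8.69 for Meg3, and 4.77 in replicate 1). The part of nuclear RNA in this share was not tested. The limma difference of this transcript was -0.95 (SE 0.47, adjusted p = 0.476).

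**Figure D3:**
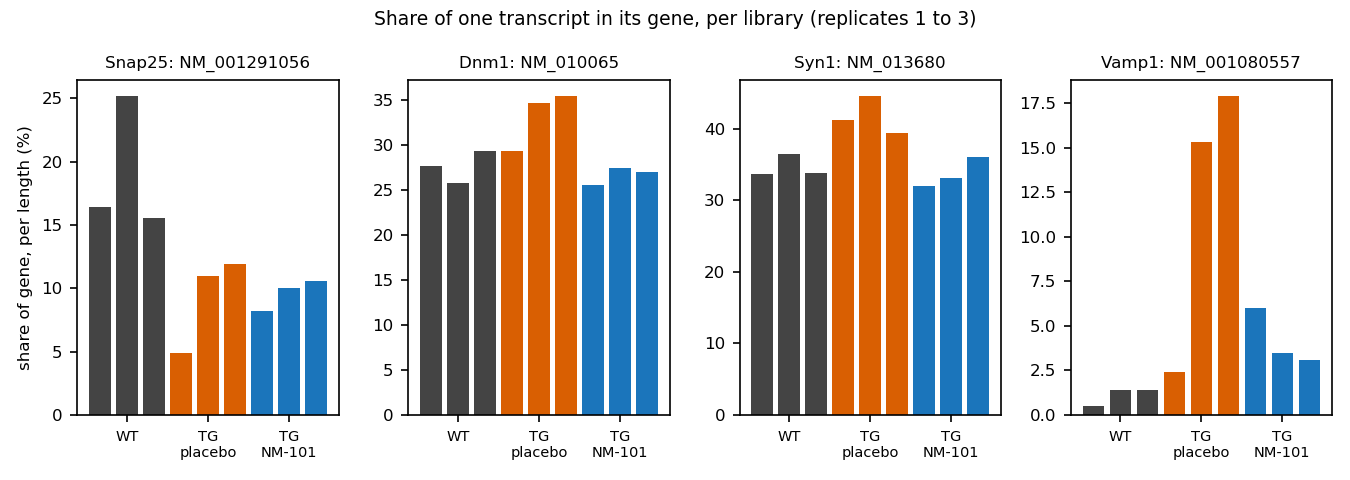
Share of 1 transcript in its gene, in percent, for 3 replicates of each group, from linear values per length; WT values were rebuilt from counts with annotated lengths. The shares of Dnm1 NM_010065 and Syn1 NM_013680, the member transcripts with the smallest limma p-values, are lower in all NM-101 libraries than in any placebo library. How many of all transcripts show this was not counted. Vamp1 NM_001080557 is high in placebo replicates 2 and 3 (15.3% and 17.9%).

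Related genes kept their order in each library for 6 of the 7 pairs compared. The log2 ratio of Vamp2 to Vamp1, both SNAREs of the vesicle, was 3.39 ± 0.26 in WT, 3.57 ± 0.28 under placebo and 3.82 ± 0.13 under NM-101 (SD, n = 3). Cplx2 exceeded Cplx1 by 0.80 ± 0.28, 1.10 ± 0.29 and 1.16 ± 0.13 in the same order, and Syn2 exceeded Syn1 by 0.43 ± 0.04, 0.17 ± 0.10 and 0.21 ± 0.12. Syngr1 exceeded Syngr3 by 0.65, 0.55 and 0.65, Napb exceeded Napa by 0.48, 0.31 and 0.56, and Bsn exceeded Pclo by 0.50, 0.69 and 0.74. The exception was Sv2a against Sv2b, whose log2 ratio was -0.32, -0.44 and -0.59 in WT, -0.17, 0.12 and 0.19 under placebo, and -0.20, -0.36 and -0.25 under NM-101. Of the NM-101 values 1 lay within the WT range and 2 above it, and all placebo values lay above both groups. WT ratios rest on annotated lengths, which shift a ratio between genes by the same amount in each WT library.

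Set beside WT, the TG libraries held these genes at like levels, with Rims1 and Unc13a as the members farthest above. The median member difference was 0.031 for TG placebo minus WT, beside 0.048 over 12488 genes, and 0.019 for TG NM-101 minus WT, beside 0.055. For 12 neuronal genes outside the synapse, the median difference from WT was -0.15 in each TG group. Among them, Rbfox3 was lower in every TG library than in any WT library. In TG placebo, 7 members stood above all WT libraries (Rims1, Unc13a, Syp, Dnajc5, Dnm1, Syn1 and Rab3a), beside 20.7% of genes, and 5 stood below (Snap25, Rph3a, Sv2b, Syt1 and Sh3gl2), beside 16.0% of genes. Under NM-101, 4 stood above WT (Rims1, Unc13a, Dnajc5 and Erc2), beside 23.5%, and 5 below (Snap25, Vamp1, Syt1, Sh3gl2 and Syngr3), beside 13.2%. The 2 comparisons share the WT libraries.

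Rims1 stood at 3.21, 3.49 and 3.05 in WT, and each TG library was at least at 4.82. The difference of placebo from WT was 1.75, a value reached or exceeded by 0.617% of genes, and that of NM-101 was 2.15. Each of its 3 transcripts was higher in the mean of TG placebo than of WT, by 1.48, 0.94 and 1.92. Unc13a stood at 4.37, 4.21 and 4.28 in WT, and its difference of 0.76 under placebo was reached or exceeded by 5.64% of genes. Without placebo replicate 1, which was at 4.59, the remaining placebo libraries were at 5.26 and 5.28. Because the units were normalized separately, genotype and processing cannot be told apart in these values.

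Snap25 was the member farthest below WT, at -0.49 for TG placebo and -0.48 for TG NM-101, and 6.4% of genes were at or below the former value. Part of this rests on a length. The annotation used here gives NM_001291056 a length of 1014 bases and NM_011428 one of 2116, and the difference of the shorter was -1.59 against -0.32 for the longer. With 2116 bases for both, a value computed after seeing the data, WT stood at 10.33, 10.42 and 10.45, and the differences were -0.34 and -0.33. The TG placebo libraries (10.27, 9.96 and 9.96) then still lay below WT. Syt1 stood at 8.49, 8.23 and 8.34 in WT and no higher than 8.18 in any TG library, Sh3gl2 at 7.07, 7.07 and 7.17 and between 6.69 and 7.07, and Dnajc5 at 5.84, 5.90 and 5.81 and between 5.94 and 6.34. Syt1 and Sh3gl2 were below WT in all TG libraries, for Sh3gl2 by less than the rounding in 1 of them, and Dnajc5 was above WT in all.

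**Figure D4:**
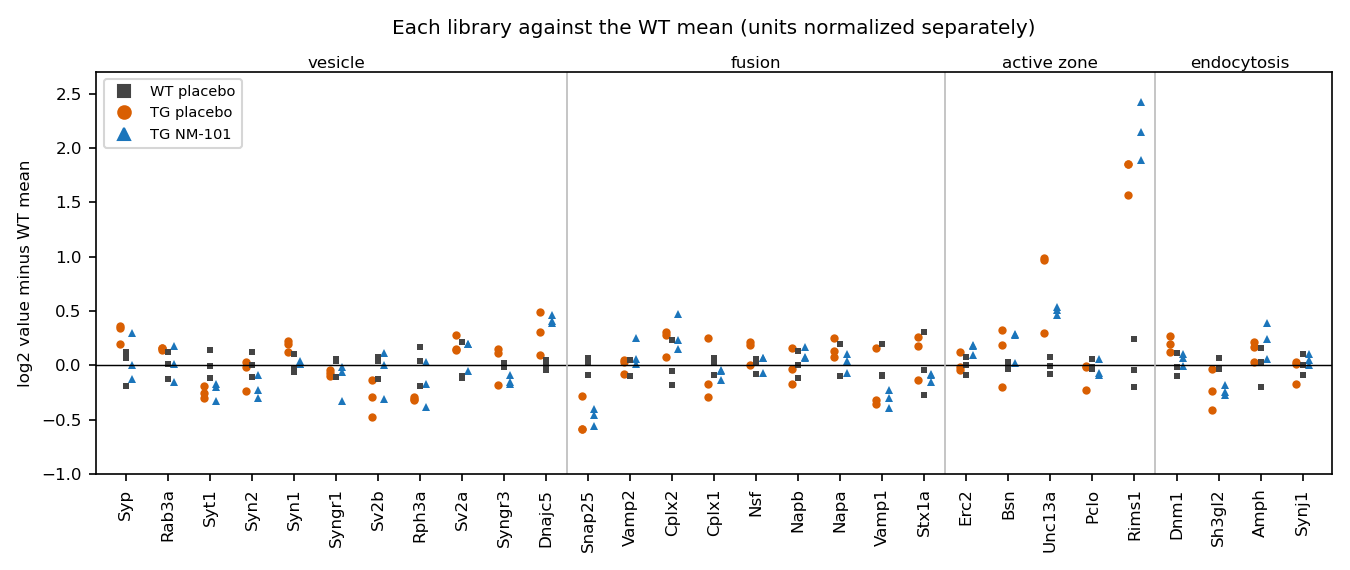
Each library's log2 value minus the mean of the 3 WT libraries, for each gene by role; squares are WT, circles TG placebo and triangles TG NM-101, and WT was normalized apart from TG. Most points lie within 0.5 of 0, while Rims1 (placebo mean 1.75, NM-101 mean 2.15) and Unc13a (0.76 and 0.51) lie above.

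Within the TG placebo group, 7 of 29 members differed by 0.3 or more between replicate 1 and the mean of replicates 2 and 3, beside 36.5% of genes. Higher in replicate 1 were Vamp1 by 0.50, Cplx1 by 0.48 and Snap25 by 0.32. Lower were Unc13a (-0.68), Bsn (-0.45), Stx1a (-0.36) and Syngr3 (-0.31). Several marker lists also differed between replicate 1 and replicates 2 and 3. They are given as medians of gene values minus the mean over the 6 TG libraries. The choroid plexus list stood at 2.83, -1.23 and -1.24 in placebo replicates 1 to 3, the thalamus and hindbrain list at 1.05, -0.39 and -0.12, and the oligodendrocyte list at 0.81, -0.40 and -0.58. Nuclear RNAs stood at -1.20, 0.99 and 1.51, and 12 neuronal genes outside the synapse at 0.08, -0.07 and 0.08. Under NM-101 the nuclear RNAs stood at -0.28, -0.50 and -0.78, below the mean as in placebo replicate 1. Summed over each list and logged, choroid plexus genes ran from 4.86 to 12.26 under placebo and from 6.30 to 10.13 under NM-101, nuclear RNAs from 7.63 to 10.43 and from 8.27 to 8.64, and thalamus and hindbrain genes from 5.87 to 6.31 and from 5.10 to 5.76. The part of these lists in the members' values was not tested.

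**Figure D5:**
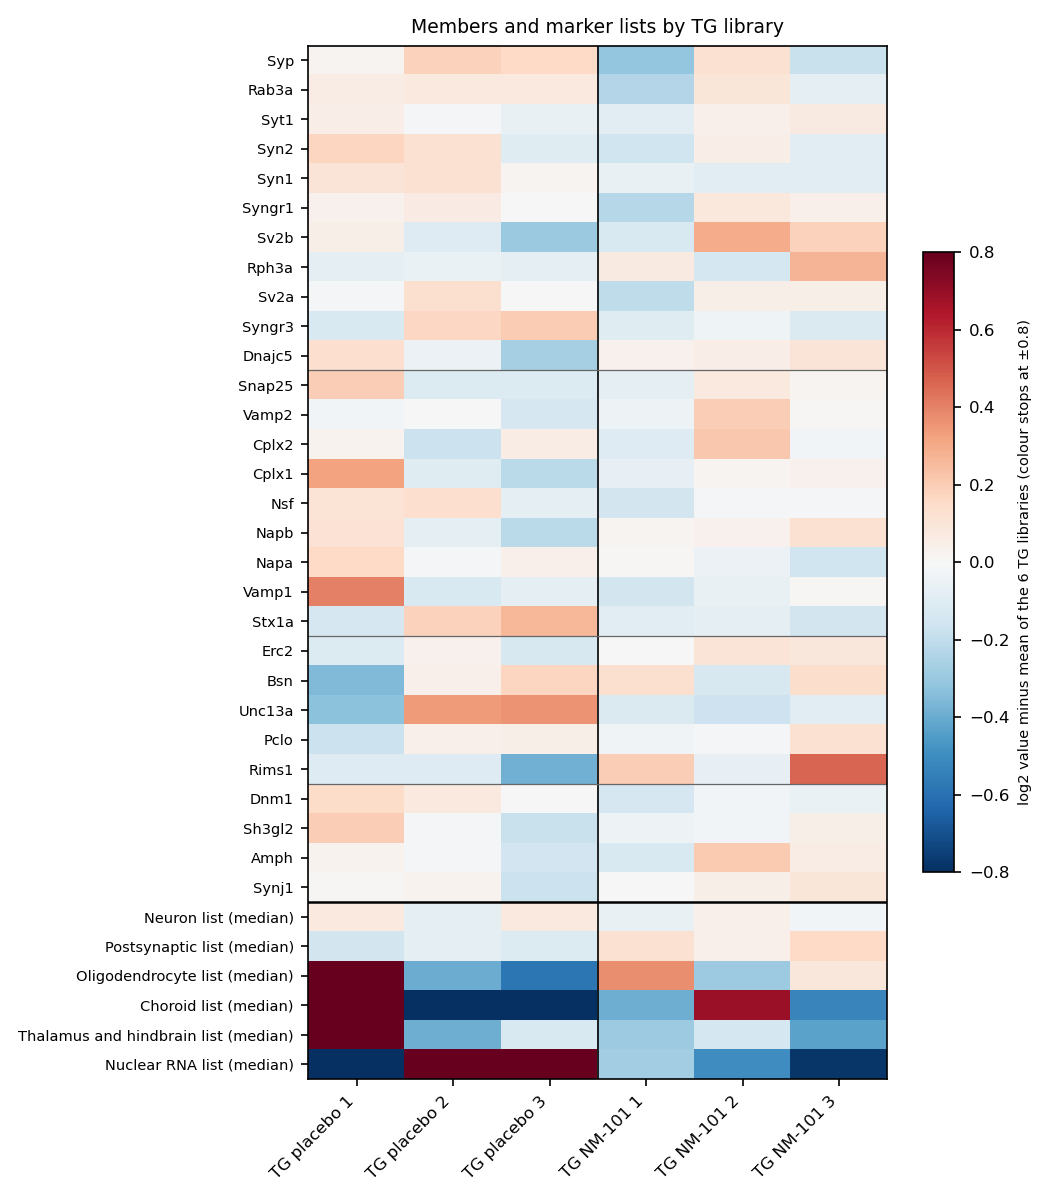
Log2 value minus the mean of the 6 TG libraries for each gene (upper rows, by role) and the median of 6 marker lists (lower rows); red is above and blue below the mean, and colours stop at 0.8. Placebo replicate 1 differs from the others in Vamp1, Cplx1, Unc13a and Bsn and in the choroid, thalamus and hindbrain, oligodendrocyte and nuclear RNA lists, while the neuron list differs little.

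Of 69 other presynaptic genes, 68 were tested, and limma called 0 of them, beside 0.134% of all genes tested. At an unadjusted p under 0.05, 8 were higher and 3 were lower, beside 14.8% of all genes tested in either direction. Their median difference was 0.04, with 36 above and 32 below 0. The smallest p-values were those of Rims4, a small relative of Rims1 (0.69, limma adjusted p = 0.108), the vesicle and secretory GTPase Rab27b (0.52, limma adjusted p = 0.138) and the endocytic adaptor Eps15 (0.54, limma adjusted p = 0.242). Of 28 postsynaptic genes, limma called 0, while 22 differences were above 0 and 6 below, with a median of 0.23. At an unadjusted p under 0.05 there were 15 (13 higher, 2 lower), beside the same 14.8% of all genes. Dlgap1, a scaffold of the postsynaptic density, differed by 0.38 (limma adjusted p = 0.110), the kinase Camk2a by 0.43 (limma adjusted p = 0.113) and the scaffold Dlg2 by 0.45 (limma adjusted p = 0.123). The difference between the pre- and postsynaptic lists was not tested.

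Cell type lists stood as follows, none with a gene called by limma. Of all genes tested, 14.8% had an unadjusted limma p under 0.05 in either direction. The 12 neuronal genes outside the synapse had a median difference of -0.02, with 5 above and 7 below 0 and 1 of each at an unadjusted p under 0.05. All 8 astrocyte genes were above 0 (median 0.39, 6 at an unadjusted p under 0.05), as were all 8 microglial genes (median 0.36, 6 at that p). Oligodendrocyte genes were above 0 for 11 of 14, with a median of 0.09 and 0 at that p. The 7 endothelial and mural genes tested were below 0 (median -0.26, 2 at that p). Summed and logged, the astrocyte genes ran from 10.30 to 10.50 under placebo and from 10.80 to 10.87 under NM-101, the microglial genes from 8.08 to 8.20 and from 8.48 to 8.50, the endothelial and mural genes from 5.98 to 6.45 and from 5.82 to 6.16, the oligodendrocyte genes from 10.69 to 12.30 and from 11.07 to 11.92, and the neuronal genes from 11.07 to 11.10 and from 11.00 to 11.16. Of the marker genes in the table, 0 were at 0 in all TG libraries. The part of cell composition in the members' values was not tested. The remaining lists had median differences of -0.31 (4 oligodendrocyte precursor genes), -0.13 (6 choroid plexus), 0.07 (6 cortex and hippocampus), -0.06 (6 striatum), -0.48 (4 thalamus and hindbrain), -0.05 (3 cerebellum) and -1.02 (6 nuclear RNAs), with at most 1 gene each at an unadjusted p under 0.05.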

How the data were processed

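The table deposited by the authors gives 33299 RefSeq transcripts in 9 samples: raw counts for the WT samples, and log2 values with decimals for the 6 TG samples. Per the submitters' processing notes, Bowtie2 and the build mm10 were used, with their roles not described; the sources used here do not name the counting and normalizing programs. The TG values were read as log2(FPKM + 1) from the values: over 18688 transcripts they rose with WT CPM (slope 1.004) and fell with length (slope -0.861), both on log2 scales. That reading is not stated by the labels.

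A RefSeq table of GRCm38.p6 gave symbols for 32394 transcripts; 905 kept their identifiers. Linear values were summed per gene and logged with a pseudocount of 1. Genes averaging at least 1 on the log2 scale in the TG samples were tested (12699) with limma 3.58.1 in R 4.3.3, with variance trend and robust shrinkage, and p-values were adjusted by Benjamini-Hochberg over all of them, at 0.05. The scale understates changes of low genes. For description, WT counts were divided by library total and GENCODE M21 transcript length. The procedure was tested on simulated data. Marker and pathway lists hold 14 sets of genes. The named genes are the 29 members, the 3 genes with the smallest p of the other synaptic lists, and marker genes of libraries or cell types. The members, lists and the limma design were chosen with earlier results of these data known, and the fit of single transcripts and the single length for Snap25 were chosen after seeing the data. Alternatives were another pseudocount, other filters, scalings, transcript summing and variance models, a replicate block, and leaving out each library.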

Additional observations from a re-analysis of the deposited data

How the results depend on the processing

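The count of genes called, 17, depended on the setting: it was 4 with no filter on low values, 0 without genes at 0 in any sample, 4 with median-ratio scaling, 7 with quantile normalization, 7 with the most abundant transcript per gene, 4 without trend and robust shrinkage, and from 2 to 2269 leaving out 1 library (2269 without TG placebo replicate 1, at most 5 without another). With the replicate number as a block it was 3. Same-numbered TG libraries had deviations correlated at 0.04, -0.03 and -0.02, which shows no pairing by number and cannot exclude one. With the block, 0 members were called. The members' median of -0.006 could not move, because the groups are balanced over replicate numbers. Members called were 0 under all other settings and 0 to 2 leaving out 1 library. Members higher were 6 of 29 with quantile normalization and 12 to 18 leaving out 1 library. Their median difference was -0.172 with quantile normalization, where 11 members were lower at an unadjusted p under 0.05 and 0 were called, and -0.078 to 0.035 leaving out 1 library; for the 864 genes at or above the members' median level, that normalization moved the median from 0.188 to 0.029. The cause was not tested. The other presynaptic list had medians of 0.003 (median-ratio), -0.070 (quantile), 0.011 (most abundant transcript) and 0.015 to 0.046 leaving out 1 library, and the postsynaptic list 0.161 (quantile) and 0.188 to 0.294. Median differences from WT for TG placebo were 0.102 over single-transcript members and -0.008 to 0.1 leaving out 1 library, and for TG NM-101 -0.053 (median-ratio), 0.081 (single-transcript members), -0.141 (no division by length) and -0.021 to 0.065.

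Of 406 member values under alternatives, 376 kept their sign, and 12 of 29 members kept it under all 14. The other filters, the variance model and the block cannot change a member's estimate, so part of this agreement was fixed in advance. Of opposite sign with quantile normalization were Syt1 (-0.13), Dnajc5 (-0.00), Snap25 (-0.37), Vamp2 (-0.14), Cplx2 (-0.17), Napb (-0.01), Synj1 (-0.01) and Amph (-0.03), with median-ratio scaling Syt1 (-0.02) and Snap25 (-0.03), and with the most abundant transcript Syt1 (-0.15), Syn1 (0.03) and Dnm1 (0.00). Leaving out 1 library gave ranges on both sides of 0 for Syt1 (-0.02 to 0.06), Snap25 (-0.04 to 0.12), Cplx2 (-0.03 to 0.13), Cplx1 (-0.12 to 0.15), Sh3gl2 (-0.10 to 0.09), Sv2a (-0.12 to 0.01), Syngr1 (-0.12 to 0.04), Vamp1 (-0.23 to 0.03), Bsn (-0.06 to 0.20) and Pclo (-0.02 to 0.09). Without a change of sign, leaving out 1 library gave -0.37 to -0.16 for Syp, 0.14 to 0.36 for Sv2b, 0.27 to 0.53 for Rims1, -0.33 to -0.13 for Stx1a, -0.47 to -0.13 for Unc13a, -0.26 to -0.10 for Syngr3 and 0.02 to 0.22 for Dnajc5, and quantile normalization gave -0.46 for Syp, -0.28 for Syn1 and -0.31 for Dnm1. Of 28 neighbouring pairs in the WT order, 12 did not overlap per length, 10 by CPM and 16 or 17 leaving out 1 library. With 3 libraries a group and depth known for TG only from steps in the values, the intervals given above are the precision of each difference over all 6 libraries.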
